A study of Mus musculus with 2 samples.

Results

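Ccl3, Ccl4, Ccl5, Ccr1, Xcl1 and Xcr1 are 4 chemokines and 2 chemokine receptors that link lymphocytes, macrophages, neutrophils and dendritic cells in a tumor. These 6 genes were taken by symbol from the 32285 genes in the deposited matrices. Their UMIs, counts of tagged RNA molecules, were summed by cell class in 2 single-cell libraries of mouse orthotopic pancreatic tumors.

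Both tumors grew from KPC cells, a line from a genetically engineered mouse model of pancreatic cancer driven by Pdx1-cre, placed in the pancreas of C57BL/6 mice, and the cells were dispersed and not sorted. FLOX was the control with floxed MCT1 alleles, and MCT1-KO carried Col1a2-CreERT2, in which the Col1a2 promoter of fibroblasts and pancreatic stellate cells (PSCs) drives a tamoxifen-dependent Cre that deletes MCT1 (Slc16a1, a lactate and pyruvate transporter). Tamoxifen or its vehicle, corn oil, was given before the tumor cells according to the study, and which of them the FLOX library was made after is not given in the sources used here. Each condition was 1 library, so no difference between them has a replicate check, no p-value is given, and every 95% interval covers counting error only.

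Ccl3 (MIP-1α) and Ccl4 (MIP-1β) are inflammatory chemokines of macrophages, activated T cells and, for Ccl3 above all, neutrophils. Ccl3 and Ccl5 (RANTES), the latter a product of effector T and NK cells, both bind Ccr1. Xcl1 (lymphotactin) is released by NK and CD8 T cells, and its receptor Xcr1 marks the conventional type 1 dendritic cells (cDC1) that cross-present tumor antigen to CD8 T cells.

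The 3 CC chemokine genes lie together on chromosome 11 and the receptor genes on chromosome 9 (GRCm38, GENCODE vM21, matched by Ensembl identifier). Ccl3 (ENSMUSG00000000982) spans chr11:83647844-83649355 on the minus strand and Ccl4 (ENSMUSG00000018930) spans chr11:83662584-83664683 on the plus strand, with 13228 bases and no coding gene between them. Ccl5 (ENSMUSG00000035042), at chr11:83525778-83530518 on the minus strand, is 132065 bases from Ccl4, with 4 coding genes between. Xcr1 (ENSMUSG00000060509) spans chr9:123852315-123862029 and Ccr1 (ENSMUSG00000025804) chr9:123962124-123968692, both on the minus strand, with 100094 bases and no coding gene between. Xcl1 (ENSMUSG00000026573) lies alone at chr1:164931644-164935527 on the minus strand. The transcript Gm20743 is annotated over Xcl1 on the plus strand, and since strand handling in the counting is not given in the sources used here, their reads cannot be told apart. Gm20743 had 27 UMIs in all kept cells against 1736 for Xcl1. Each ligand gene has 3 exons and each of the 2 receptor genes has 2 exons.

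The 250 bases before the transcription start of Ccl3, Ccr1 and Xcl1 are shown because Ccl3 and Ccr1 were highest in neutrophil-like cells and Xcl1 in T/NK-like cells, and each has a RefSeq window (GRCm38.p6). They are written 5′ to 3′ on the gene's strand. Capitals mark 3 motifs searched on both strands, namely TTNNGNAA for C/EBP, a family of myeloid factors, TGTGGT for RUNX and GAGGAA for ETS, a family that includes PU.1. Among 32851 windows of this length, 36.8% held the C/EBP letters, 14.05% the RUNX letters and 23.3% the ETS letters.
Ccl3, chr11:83649379-83649628, minus strand: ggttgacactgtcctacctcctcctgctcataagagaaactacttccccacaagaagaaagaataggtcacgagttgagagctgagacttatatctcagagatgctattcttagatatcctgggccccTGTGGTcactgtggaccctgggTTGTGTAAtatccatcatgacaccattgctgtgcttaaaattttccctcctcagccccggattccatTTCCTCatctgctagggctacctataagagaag
Ccr1, chr9:123968693-123968942, minus strand: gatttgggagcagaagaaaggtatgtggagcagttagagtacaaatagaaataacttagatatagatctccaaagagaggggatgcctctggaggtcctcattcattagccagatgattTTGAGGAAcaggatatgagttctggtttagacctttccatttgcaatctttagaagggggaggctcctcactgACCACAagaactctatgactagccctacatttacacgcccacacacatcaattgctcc
Xcl1, chr1:164935523-164935772, minus strand: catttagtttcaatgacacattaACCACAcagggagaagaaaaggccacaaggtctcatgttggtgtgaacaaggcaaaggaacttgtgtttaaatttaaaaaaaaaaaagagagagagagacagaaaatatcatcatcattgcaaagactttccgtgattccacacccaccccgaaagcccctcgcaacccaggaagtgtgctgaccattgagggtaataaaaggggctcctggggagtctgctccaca
Ccl3 held all 3 motifs, with C/EBP letters at −100 to −93, RUNX letters at −122 to −117 and ETS letters at −33 to −28 from the start. Ccr1 also held all 3, with the ETS letters at −129 to −124 inside the C/EBP match at −131 to −124 and the RUNX letters at −58 to −53. Xcl1 held only RUNX letters, at −227 to −222, and the Xcr1 window held none of the 3. A match describes the letters in the window and says nothing about binding in these cells.

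Of 1437105 and 1433633 deposited barcodes in FLOX and in the library labelled MCT1-KO, 8739 and 11689 were kept at 500 or more UMIs, 200 to 5000 genes and at most 8% mitochondrial UMIs, with medians of 4069 and 3706 UMIs. Cells were clustered without the 6 genes among the clustering genes and named by marker lists, and the names are rebuilt here. Levels are in CPM, computed from the UMIs of a class summed over its cells. Slc16a1 was not lower where the label places its deletion. PSC-like cells held 57 UMIs or 25.5 CPM (19.4 to 33.1) in FLOX and 112 UMIs or 35.5 CPM (29.2 to 42.7) in the other library, a ratio of 1.39 (1.00 to 1.94). Whether the counted 3′ tags lie in the deleted part is not given in the sources used here, so the gene checks nothing. The study assessed the knockout in PSCs extracted from the mice by PCR and Western blot, and by tissue staining, which were not analysed here. It also assessed MCT1 in PSCs of its single-cell data with its own cell classes, and that result is not reported here. The name "the library labelled MCT1-KO" is used below. Acinar genes of the host pancreas reached 365 and 19562 CPM in barcodes too small to be cells, which hold free RNA. In those empty barcodes Ccl3 was at 199.6 and 95.2 CPM, Ccl4 at 427 and 304, and Ccl5 at 216 and 138. PSC-like, endothelial-like, acinar-like and ductal-like cells lay below these 3 levels in both libraries, and levels under those of empty barcodes were neither ranked nor read as expression, since how much of them was free RNA was not tested. The libraries shared 59 barcodes.

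Ccl3 was most abundant in neutrophil-like cells, and there it was 3.72-fold (3.46 to 3.99) higher in FLOX. The 757 FLOX neutrophil-like cells held 4942 UMIs, or 3818 CPM (3712 to 3926), and the 708 cells of the library labelled MCT1-KO held 944, or 1028 CPM (963 to 1095). The T/NK-like cells showed a difference of like size, at 773 CPM (738 to 809) in 567 FLOX cells and 227 (204 to 250) in 500 cells of the other library, 3.41-fold (3.05 to 3.82) higher in FLOX. In myeloid-like cells, macrophages and monocytes by their markers, Ccl3 stood at 582 CPM (570 to 594) and 546 (532 to 559), so that the intervals came close without overlapping. Dendritic-like cells were lowest of the 4 classes, at 224 CPM (198 to 253) and 177 (147 to 211). In FLOX the order was neutrophil first and dendritic last, and T/NK and myeloid were not ranked between them because a single cell held 441 of the 1813 T/NK-like UMIs (24.3%). In the other library neutrophil and myeloid stood ahead of T/NK and dendritic, which overlapped. Macrophage genes in the neutrophil-like cells summed to 3742 CPM in FLOX and 2117 in the library labelled MCT1-KO, a ratio of 0.566 (0.537 to 0.596), and their part in the Ccl3 and Ccl4 ratios was not tested.

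**Figure D1:**
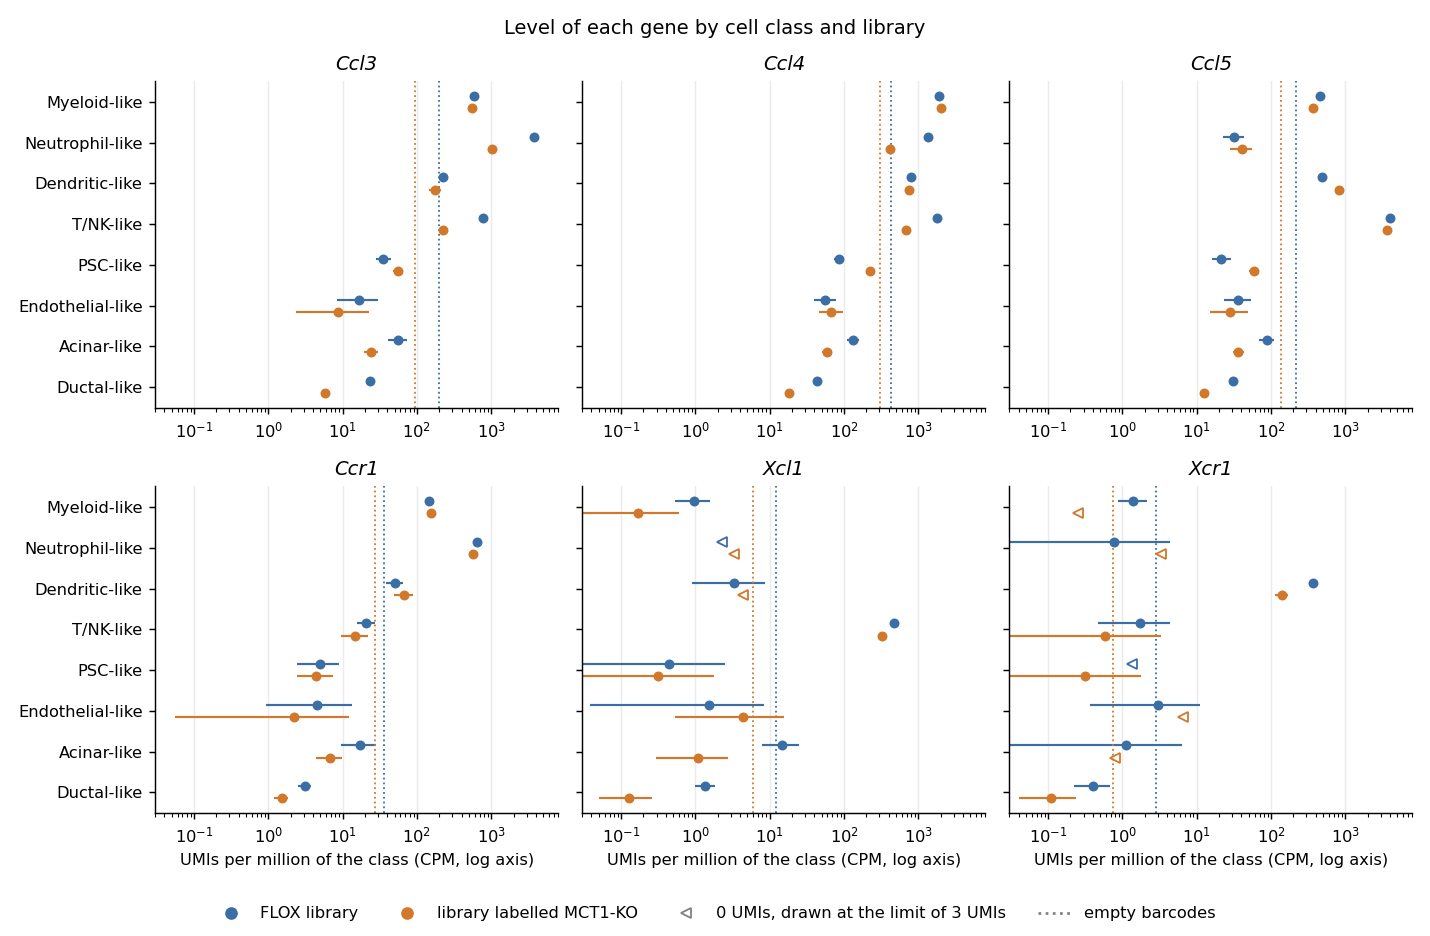
Levels of the 6 genes in the cell classes of the 2 libraries, in CPM of the class's summed UMIs on a log axis, with exact 95% Poisson intervals, open triangles at the limit of 3 UMIs where none was counted, and dotted lines at the level in empty barcodes. Above the dotted lines, Ccl3 and Ccl4 separate the libraries most in neutrophil-like and T/NK-like cells, where FLOX is higher, while the myeloid-like points nearly coincide. Below the lines, ductal-like and acinar-like points also separate with FLOX higher, and PSC-like points separate the other way.

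Neutrophil-like cells carried far more of the Ccl3 message than their RNA content. With 1.55% of all kept UMIs, they held 22.8% of the Ccl3 UMIs, 28.8% in FLOX and 10.9% (10.3 to 11.6) in the library labelled MCT1-KO. Myeloid-like cells, with 19.4% of all UMIs, held 60.7% (60.1 to 61.3), 53.0% in FLOX and 75.8% in the library labelled MCT1-KO. After every cell was thinned to 1000 UMIs, Ccl3 was detected in 55.6% of FLOX neutrophil-like cells and in 21.1% of those of the other library, with 54 and 268 shallower cells left out. The myeloid-like shares were 30.7% and 29.2%. In ductal-like cells, which should lack the gene, the thinned share over both libraries was 1.72%. It was 3.15% in FLOX and 0.751% in the other library. Without thinning, 43.2% of neutrophil-like and 10.3% of ductal-like cells had a Ccl3 UMI, at median depths in FLOX of 1471 and 15227 UMIs.

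The 2 neutrophil-like clusters differed in level but not in the direction for Ccl3. The larger, led by Il1r2, Hdc and Il23a (574 and 536 cells), was at 5329 CPM (5176 to 5484) and 1446 (1352 to 1545), a ratio of 0.271 (0.252 to 0.292). The smaller, led by Ngp and Retnlg (183 and 172 cells), was at 717 and 203 CPM, a ratio of 0.284 (0.213 to 0.374).

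Ccl4 followed Ccl3 in neutrophil-like and T/NK-like cells but belonged mainly to the macrophages. Neutrophil-like cells were at 1331 CPM (1269 to 1395) in FLOX and 416 (375 to 460) in the library labelled MCT1-KO, 3.20-fold (2.86 to 3.59) higher in FLOX, and T/NK-like cells at 1796 (1742 to 1851) and 675 (636 to 715), 2.66-fold (2.49 to 2.84) higher. Myeloid-like cells were at 1913 (1891 to 1935) and 2016 CPM (1990 to 2041), giving a ratio of 1.05 (1.04 to 1.07), and dendritic-like cells at 788 and 750 CPM, whose intervals overlapped. Myeloid-like cells held 80.6% of the Ccl4 UMIs, with 77.1% in FLOX and 85.5% in the other library. T/NK-like cells held 10.9% and 4.05%.

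The near-equal myeloid level of Ccl4 was a sum of sub-clusters that went opposite ways. In a sub-cluster led by Lyve1, Fcna and Cd163, genes of resident macrophages, together with the type I interferon gene Ifnb1 and the interferon-induced genes Rsad2, Ifit1 and Ifih1 (45 and 90 cells), Ccl4 was at 6249 CPM (5855 to 6663) in FLOX and 12162 (11762 to 12572) in the library labelled MCT1-KO, a ratio of 1.95 (1.81 to 2.09). The Arg1 macrophage-like sub-cluster (130 and 163 cells) gave 2402 and 4687 CPM, also a ratio of 1.95 (1.86 to 2.05), and the sub-cluster led by the cytokine genes Tnf, Il1a and Il10 (86 and 179 cells) gave 3645 and 5734 CPM, a ratio of 1.57 (1.495 to 1.66). In these 3 sub-clusters Ccl3 was also higher in the library labelled MCT1-KO, with ratios of 1.68, 1.80 and 1.24. The opposite held in a large sub-cluster led by heat-shock genes (520 and 338 cells), with 2384 and 1602 CPM of Ccl4 and a ratio of 0.672, and in one led by Cxcl9 and Gbp5, which interferon-gamma induces (142 and 153 cells), with 2355 and 1758 CPM and a ratio of 0.746 (0.700 to 0.796). These sub-clusters were not compared by size, since genes that define them differed between the libraries, and the difference between their ratios was not tested.

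Among neutrophils the 2 clusters parted for Ccl4. The cluster led by Il1r2 stood at 1799 and 438 CPM, a ratio of 0.244 (0.213 to 0.278), whereas the one led by Ngp stood at 370 and 371 CPM, a ratio of 1.00 (0.782 to 1.28). That difference was not tested either, and a level of 370 CPM is below the 427 CPM of the empty FLOX barcodes.

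**Figure D2:**
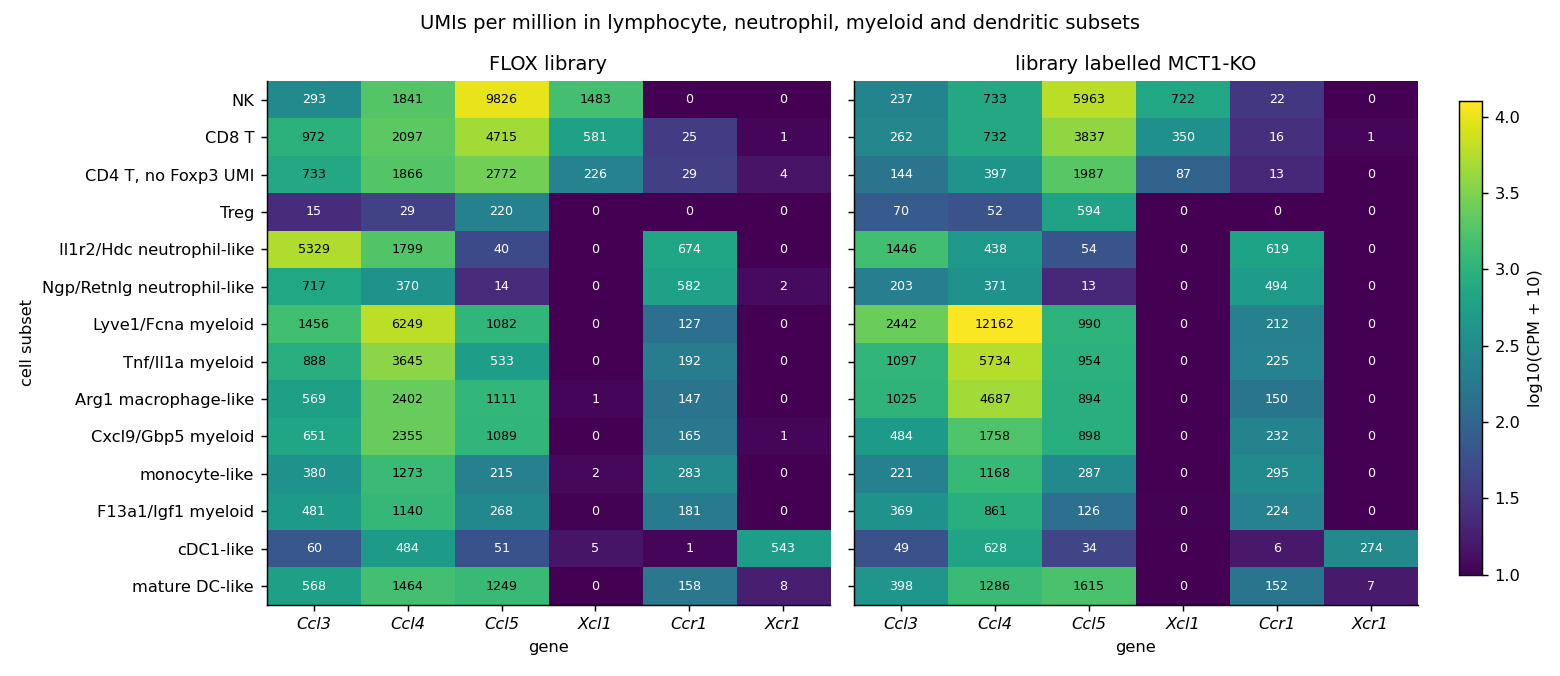
Heat maps of the CPM of the 6 genes (columns) in lymphocyte, neutrophil, myeloid and dendritic subsets (rows), 1 map for each library, with the CPM written in each cell and color on a log10(CPM + 10) scale. Ccl4 is higher in the library labelled MCT1-KO in the macrophage sub-clusters at 12162, 5734 and 4687 CPM, and lower there in CD8 T cells, CD4 T cells, NK cells and the Il1r2 neutrophil cluster.

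Ccl4 was detected in a larger share of the cells with Ccl3 than of those without it. With all cells thinned to 1000 UMIs, Ccl4 was found in 78.2% (75.0 to 81.1) of Ccl3-positive and 38.6% (36.2 to 41.0) of Ccl3-negative myeloid-like cells of FLOX, and in 76.6% and 32.3% in the other library. In T/NK-like cells the shares were 66.3% and 38.7% in FLOX and 58.2% and 18.6% in the library labelled MCT1-KO. Ccr1, the receptor, showed no such difference by Ccl3 among neutrophil-like cells, with 43.5% and 46.2% in FLOX and 44.1% in both kinds of cell in the other library. Cells of 1 library are not replicates, so these shares are descriptions.

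The members that passed 2-fold were counted beside all genes of the same class. Among members with 50 or more UMIs over both libraries, 2 of 4 in neutrophil-like cells, Ccl3 and Ccl4, were lower past 2-fold in the library labelled MCT1-KO, where 3.85% of 4888 measured genes were, and 0 were higher, against 3.85%. In T/NK-like cells 2 of 5, again Ccl3 and Ccl4, were lower past 2-fold, against 2.68% of 7562 genes, and 0 were higher, against 1.19%. In myeloid-like cells 0 of 4 passed 2-fold, where 2.8% of 11448 genes were higher and 2.98% lower. In dendritic-like cells 1 of 5, Xcr1, was lower, against 4.25% of 4491 genes, and 0 were higher, against 2.76%. The median ratios of the members were 0.604 in neutrophil-like, 0.695 in T/NK-like, 0.996 in myeloid-like and 0.952 in dendritic-like cells, and those of all measured genes 1.08, 0.971, 1.02 and 0.986. The neutrophil-like count and median include Ccl5, and the T/NK-like ones Ccr1, although these lay below the empty barcodes there.

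**Figure D3:**
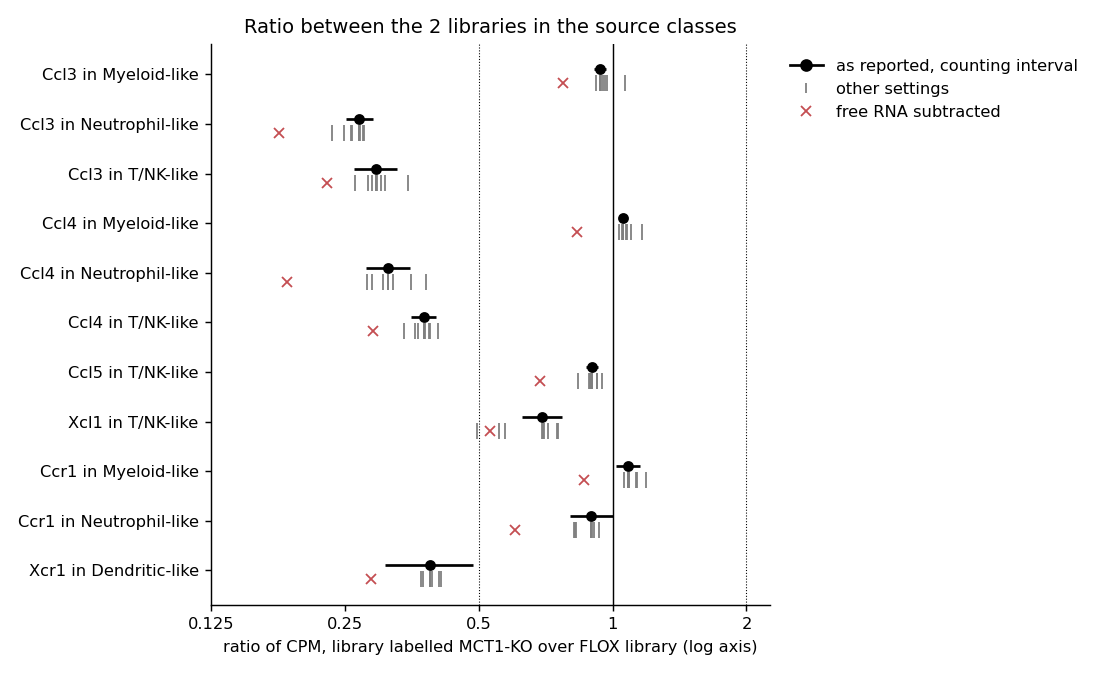
Ratio of CPM, library labelled MCT1-KO over FLOX, for the 6 genes in their source classes on a log axis, with black points and conditional exact 95% intervals for the reported values, grey ticks for other processing settings and red crosses with free RNA subtracted at the shares given by acinar genes. Ccl3 and Ccl4 in neutrophil-like and T/NK-like cells and Xcr1 in dendritic-like cells lie left of 0.5 under every setting drawn, while Ccl3, Ccl4 and Ccr1 in myeloid-like cells have settings on both sides of 1.

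Heat-shock and immediate-early genes, which also respond to tissue dispersal, moved the same way in these classes. Of the measured genes on that list, 8 of 12 in neutrophil-like, 6 of 13 in T/NK-like and 7 of 13 in myeloid-like cells were lower past 2-fold in the library labelled MCT1-KO, with summed ratios of 0.448, 0.531 and 0.555. In myeloid-like cells Ccl3 and Ccl4 had ratios of 0.938 and 1.05. For Ccl4 these were sums of sub-clusters that went opposite ways, with the ratio below 1 in one led by heat-shock genes. The part of the heat-shock and immediate-early genes in the chemokine ratios was not tested. The share of free RNA in a class was not settled by these data. In FLOX neutrophil-like cells the acinar genes gave 58.6%, whereas Ccl5, at 31.7 CPM (22.7 to 43.0) against 216 in empty barcodes, left room for at most 19.9%. With the acinar-gene shares subtracted the neutrophil-like ratios were 0.178 for Ccl3 and 0.185 for Ccl4, and which of the FLOX shares holds was not tested. Without the top cell of each library the T/NK-like Ccl3 ratio was 0.346.

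Of the other ligands of Ccr1, Ccl6 was above the empty barcodes in neutrophil-like cells and lower past 2-fold in the library labelled MCT1-KO, at 1018 CPM (empty barcodes 69.4) in FLOX and 491 (empty barcodes 46.7) in the other library. The 3 of 3 ligands listed passed 2-fold in that direction, but Ccl7, at 44.0 and 16.3 CPM, lay below the empty barcodes (146 and 83.8) and Ccl9, at 41.7 and 18.5, near or below them (40.9 and 24.6), so neither was read as neutrophil expression. In myeloid-like cells 0 of these 3 passed 2-fold, with Ccl6 at 267 and 304 CPM. Of 11 NF-κB response genes measured in neutrophil-like cells, 3 were lower past 2-fold, namely Zfp36, which destabilizes cytokine mRNAs, at 1923 and 539 CPM, Ptgs2, the inducible cyclooxygenase, at 1459 and 554, and Cxcl2, a ligand of the neutrophil receptor Cxcr2, at 29903 and 12862. Empty barcodes held Zfp36 at 953 and 496 CPM, Ptgs2 at 189 and 146 and Cxcl2 at 1667 and 1327. None of the 11 passed 2-fold in myeloid-like cells.

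Ccl5 was a lymphocyte transcript whose level in its main source differed little between the libraries. T/NK-like cells were at 4047 CPM (3966 to 4130) in FLOX and 3632 (3542 to 3724) in the library labelled MCT1-KO, a ratio of 0.897 (0.869 to 0.927). With 2.83% of all UMIs they held 51.0% of the Ccl5 UMIs, 51.3% in FLOX and 50.5% in the other library. Myeloid-like cells held a further 37.3%, at 454 and 362 CPM, a ratio of 0.797 (0.767 to 0.828). Neutrophil-like cells, rich in Ccl3, were at 31.7 and 40.3 CPM, below the empty barcodes.

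Among the classes above the level of empty barcodes in both libraries, dendritic-like cells were the one in which Ccl5 was higher in the library labelled MCT1-KO, at 481 CPM (442 to 522) in FLOX and 824 (758 to 895) in the other library, a ratio of 1.71 (1.52 to 1.93). The mature dendritic sub-cluster of 46 cells in each library held 466 of the Ccl5 UMIs in each library, at 1249 (1138 to 1368) and 1615 CPM (1471 to 1768), giving a ratio of 1.29 (1.13 to 1.47). In the cDC1-like sub-cluster the level was 50.6 and 33.9 CPM, below the empty barcodes. A single cell held 25.5% of the dendritic-like Ccl5 UMIs of the library labelled MCT1-KO and 17.1% of those of FLOX. The tenth of dendritic-like cells with the most Ccl5 held 91.97% in FLOX (12 cells) and 94.38% in the other library (11 cells). The share of dendritic-like cells with Ccl5 was not higher in the library labelled MCT1-KO. After thinning it was 17.1% in FLOX and 12.5% in the other library, with overlapping intervals, and without thinning 34.2% and 22.2%.

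Within the lymphocytes, NK cells had the highest Ccl5 level and regulatory T cells the lowest. NK cells, those with Ncr1 or Klrb1c UMIs and no T cell UMIs (20 and 31 in number), were at 9826 CPM (9057 to 10642) in FLOX and 5963 (5476 to 6481) in the library labelled MCT1-KO. CD8 T cells, with Cd8a or Cd8b1 UMIs (343 and 232), were at 4715 (4604 to 4829) and 3837 (3715 to 3962), and CD4 T cells without Foxp3 (72 each) at 2772 and 1987. Foxp3-positive cells, 15 and 14 in number, were at 220 (123 to 363) and 594 (411 to 829). The ratio was below 1 in the first 3 subsets, at 0.607, 0.814 and 0.717. Cells with none of these defining UMIs (117 and 151) went the other way, at 2592 and 4030 CPM, a ratio of 1.56 (1.43 to 1.70). Those cells were 20.6% of T/NK-like cells in FLOX and 30.2% in the other library, at T/NK-like medians of 3081 and 2476 UMIs. Depth decides in part which cells have a defining UMI, and its part in these ratios was not tested.

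Among lymphocytes, Ccl3 and Ccl4 were higher in T cells of an exhausted type than in NK cells. The sub-cluster named exhausted by its markers and led by Gzmf, Ifng and Lag3, with Ccl3 itself among its leading genes (142 and 122 cells), held Ccl3 at 1887 CPM (1783 to 1995) in FLOX and 459 (399 to 526) in the library labelled MCT1-KO, and Ccl4 at 3073 and 1174. Its Ccl5 was not lower there, at 4405 (4245 to 4568) and 5003 CPM (4798 to 5214). Among CD8 T cells Ccl3 was at 972 and 262 CPM, a ratio of 0.269 (0.235 to 0.308), and Ccl4 at 2097 and 732, a ratio of 0.349 (0.321 to 0.379). CD4 T cells without Foxp3 had ratios of 0.196 and 0.213 for these genes. In FLOX a single T/NK-like cell held 24.3% of the T/NK-like Ccl3 UMIs, and a single cell 15.4% of the Ccl4 UMIs. The levels of T cell subsets were not recomputed without such cells. In NK cells Ccl4 was at 1841 (1518 to 2214) and 733 CPM (569 to 930), giving a ratio of 0.398 (0.290 to 0.543). Ccl3, with 18 and 22 UMIs in NK cells, was at 293 and 237 CPM, whose intervals overlapped, and in the T/NK-like cells without a defining UMI it was at 204 and 205 CPM. Of 6 lymphocyte activation genes measured in T/NK-like cells, 1 was lower past 2-fold, Ifng, the interferon of Th1 and CD8 cells, at 385 and 104 CPM, a ratio of 0.272 (0.230 to 0.319). Tnfrsf9, which encodes the costimulatory receptor 4-1BB, was at 472 and 513 CPM and Gzmb, a killing enzyme, at 295 and 310.

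Macrophage genes in the T/NK-like cells summed to 7997 CPM in FLOX and 4857 in the library labelled MCT1-KO, with 1 of 6, Lyz2, lower past 2-fold (698 and 283 CPM, below the 1589 and 833 of empty barcodes). Their part in the Ccl3 and Ccl4 ratios was not tested.

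**Figure D4:**
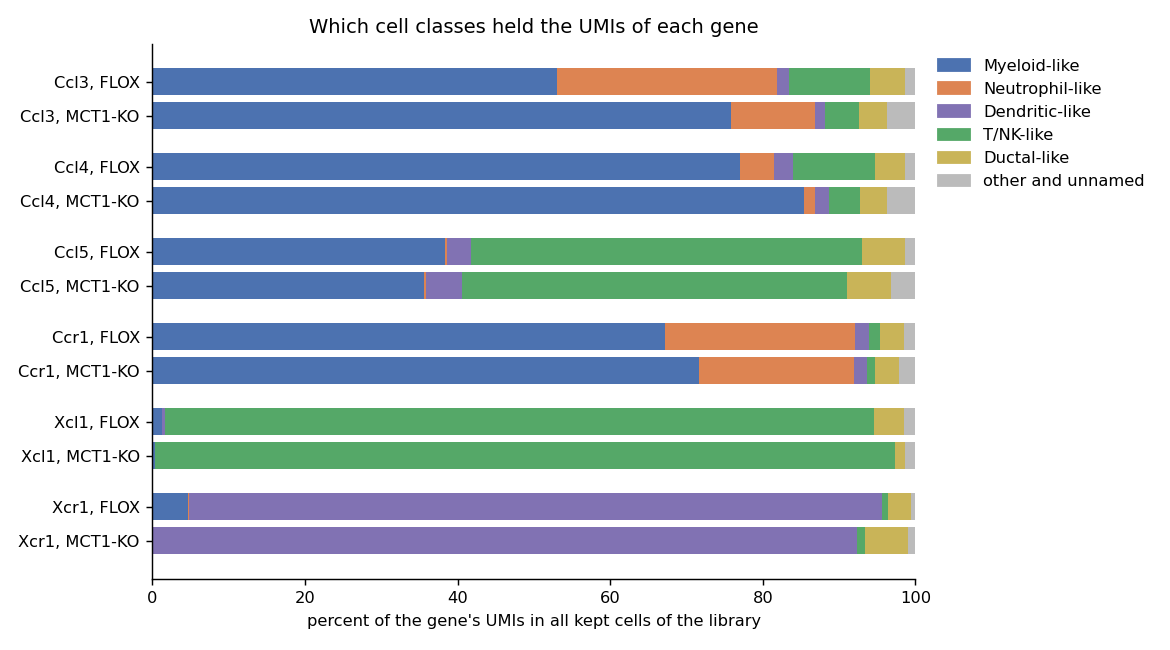
Share of each gene's kept UMIs that came from each cell class, in percent, by library. Myeloid-like cells dominate Ccl4 at 80.6% over both libraries, T/NK-like cells Xcl1 at 94.2% and dendritic-like cells Xcr1 at 91.0%, and the neutrophil-like part of Ccl3 shrinks from 28.8% to 10.9%.

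Xcl1 was close to a pure lymphocyte transcript. T/NK-like cells held 94.2% (93.04 to 95.3) of its 1736 kept UMIs, 92.9% in FLOX and 97.0% in the library labelled MCT1-KO. Their level was 464 CPM (437 to 493) and 323 (296 to 351), a ratio of 0.695 (0.626 to 0.771). Neutrophil-like cells had 0 Xcl1 UMIs in both libraries, which allows levels of up to 2.32 and 3.27 CPM, and myeloid-like cells had 15 and 2 UMIs. Empty barcodes were at 12.3 and 5.97 CPM.

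Few lymphocytes made most of the Xcl1. After thinning, 13.01% of T/NK-like cells in FLOX and 9.59% in the library labelled MCT1-KO had an Xcl1 UMI. Of ductal-like cells 0.0638% had one over both libraries, 0.157% in FLOX and 0% in the other library. The tenth of T/NK-like cells with the most Xcl1 held 92.3% and 94.7% of its UMIs, compared with 42.4% and 47.0% for Ccl5. A single cell in FLOX held 233 UMIs, 21.4% of the class. Ccl5 status did not separate Xcl1-positive cells in one direction, since 12.2% of Ccl5-positive and 14.9% of Ccl5-negative T/NK-like cells of FLOX had Xcl1, and 11.4% and 6.5% in the other library.

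NK cells held the highest Xcl1 level and CD8 T cells the most molecules. NK cells were at 1483 CPM (1194 to 1821) in FLOX and 722 (560 to 917) in the library labelled MCT1-KO, a ratio of 0.487 (0.350 to 0.675) from 91 and 67 UMIs. CD8 T cells were at 581 (542 to 621) and 350 (314 to 389), a ratio of 0.602 (0.529 to 0.684), and held 67.7% of all Xcl1 UMIs. The exhausted type sub-cluster alone held 43.2%, at 761 and 559 CPM, a ratio of 0.735 (0.629 to 0.857). CD4 T cells without Foxp3 were lower, at 226 and 87.2 CPM. Foxp3-positive cells had 0 UMIs, which at their depth allows up to 44.0 and 52.4 CPM, so that absence could not be read. T/NK-like cells without a defining UMI again went the other way, at 189 and 350 CPM, a ratio of 1.85 (1.35 to 2.56), with the same limit of depth.

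Ccr1, the receptor shared by Ccl3 and Ccl5, sat on the myeloid side and barely differed between the libraries. Neutrophil-like cells were at 644 CPM (601 to 690) in FLOX and 577 (529 to 628) in the library labelled MCT1-KO, a ratio of 0.895 (0.802 to 1.00). Myeloid-like cells were at 144 (138 to 150) and 156 CPM (149 to 164), giving a ratio of 1.08 (1.02 to 1.15), and dendritic-like cells at 50.4 and 66.6, whose intervals overlapped. Ccr1 was found after thinning in 44.7% and 44.1% of neutrophil-like cells, where Ccl3 was in 55.6% and 21.1%. In ductal-like cells it was found in 0.239% over both libraries, 0.433% in FLOX and 0.107% in the other library. T/NK-like cells, at 20.9 and 14.8 CPM, were below the 36.6 and 27.4 CPM of empty barcodes.

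Among mononuclear phagocytes, the monocyte-like sub-cluster (75 and 52 cells) had the highest Ccr1 level in FLOX, at 283 CPM (241 to 330). In the library labelled MCT1-KO it was at 295 CPM (234 to 367), which overlapped the sub-cluster led by Cxcl9 and Gbp5. The sub-cluster led by Cxcl9 and Gbp5 had 165 (141 to 192) and 232 CPM (201 to 267), giving a ratio of 1.41 (1.14 to 1.74), and the Arg1 macrophage-like one 147 and 149.5 CPM, which overlapped. The mature dendritic sub-cluster carried Ccr1 at 158 and 152 CPM. In cDC1-like cells there were 1 and 2 UMIs, or 1.30 and 6.16 CPM. The neutrophil-like cluster led by Ngp and the one led by Il1r2 had overlapping levels in FLOX, at 582 (512 to 660) and 674 CPM (621 to 731).

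Xcr1 was almost limited to dendritic-like cells and was 2.58-fold (2.07 to 3.25) higher in FLOX. Dendritic-like cells had 432 UMIs or 363 CPM (329 to 398) in FLOX and 97 UMIs or 141 CPM (114 to 171) in the library labelled MCT1-KO. They held 91.0% (88.4 to 93.2) of the 581 Xcr1 UMIs with 1.32% of all kept UMIs. After thinning, 21.6% and 7.29% of dendritic-like cells had Xcr1, compared with 0.0394% and 0.0268% of ductal-like cells.

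The cDC1-like sub-cluster held 87.3% of the Xcr1 UMIs. Its 62 FLOX cells were at 543 CPM (492 to 597) and its 37 cells in the library labelled MCT1-KO at 274 (220 to 337), so that within the sub-cluster the ratio was 0.505 (0.397 to 0.636), against 0.388 (0.308 to 0.484) in the class as a whole. The mature dendritic sub-cluster had 8.04 and 6.93 CPM, against 2.86 and 0.751 in empty barcodes. Of these 2 sub-clusters, Xcr1 was higher in the cDC1-like one and Ccl5 in the mature one. Whether single cells shared them was not computed. In the same cDC1-like cells Ccl4 was not lower in the library labelled MCT1-KO, at 484 (436 to 536) and 628 CPM (545 to 720). Flt3l, the growth factor of cDC1, was at 29.9 and 31.9 CPM in T/NK-like cells, a ratio of 1.07. The heat-shock and immediate-early list had 6 of 13 genes lower past 2-fold in dendritic-like cells, and its part in the Xcr1 ratio was not tested.

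**Figure D5:**
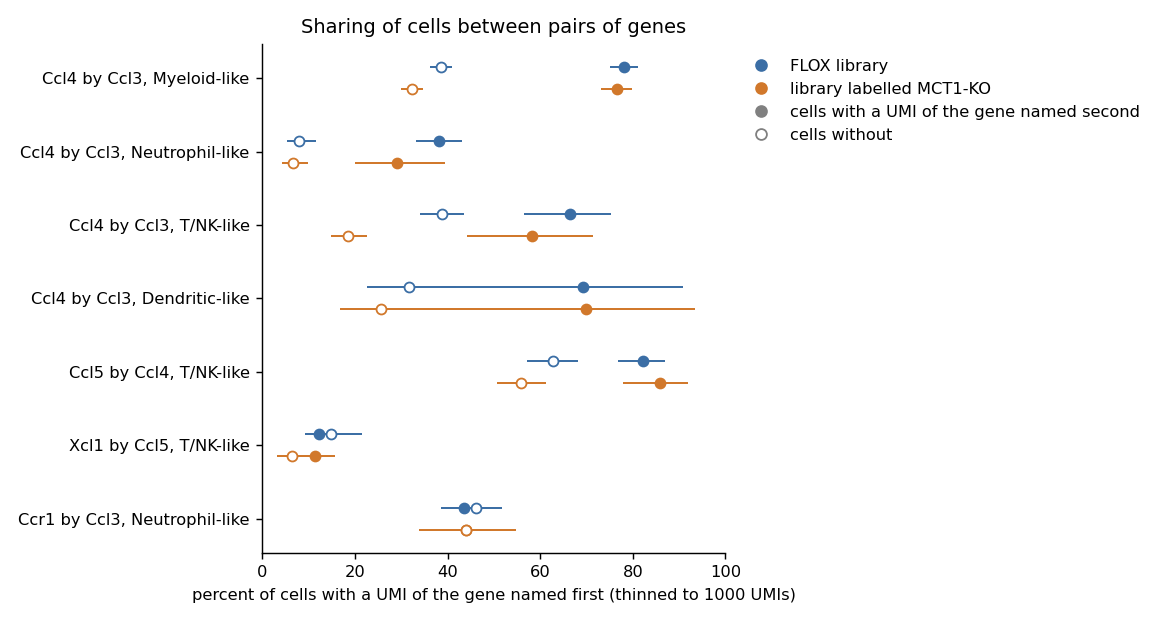
Share of cells in which a second gene was detected, among cells with and without the first, all thinned to 1000 UMIs, with exact 95% binomial intervals for each library. In myeloid-like cells Ccl4 is detected in 78.2% of Ccl3-positive and 38.6% of Ccl3-negative FLOX cells, whereas Ccr1 in neutrophil-like cells lies near 44% on either side.

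The genes with levels most like each member were taken by Pearson's r of log2(CPM + 10) over 12699 genes. It was computed across the 16 points given by 8 classes in 2 libraries. These points are the class sums used above, so r is a description and no check of those levels. They also share libraries and free RNA. For Xcl1 the nearest genes were Trbc2 (0.991), Gzmb (0.991), Sh2d1a, Eomes and Skap1, and for Xcr1 Clec9a (0.997), Ccl22, Bcl2l14, Ffar4 and Dcstamp. The points do not separate dendritic sub-clusters, since Ccl22 also led the mature dendritic one. Ccr1 came with Tnf (0.987), Cd300lf, Ccl6, Clec4n and Nfam1, and Ccl3 with 1600014C10Rik (0.979), Myo1f, Lilr4b, Pag1 and Lilrb4a. For Ccl4 the nearest were Gpr65 (0.963), Laptm5, Fermt3, Stap1 and Rgs2, and for Ccl5 Il21r (0.970), Lpxn, Gpr18, Gpr183 and Il7r. Between members r was 0.895 for Ccl3 with Ccl4, 0.894 for Ccl3 with Ccr1, 0.743 for Ccl5 with Xcl1 and −0.114 for Xcl1 with Xcr1.

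With free RNA subtracted at the shares the acinar genes gave in myeloid-like cells, 36.0% in FLOX and 13.4% in the other library, the small differences of Ccl4 and Ccr1 changed direction, to ratios of 0.830 and 0.860. Xcl1 in these cells left room for at most 12.9% and 10.1%. Both estimates assume that free RNA has the makeup of empty barcodes, which was not tested. Leaving out likely doublets moved the Ccl3 ratio in these cells from 0.938 to 1.07. The Xcl1 ratio in T/NK-like cells passed 2-fold, at 0.495, when cells were assigned by marker UMIs alone.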

How the data were processed

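Single-cell RNA was measured in 1 FLOX and 1 MCT1-KO tumor library. The authors trimmed reads with Fastp and made UMI counts per gene and barcode with SeekOneTools, and these deposited counts were used unfiltered. The submitters' processing notes also name Seurat 4.0.0. The stated reference is human GRCh38 while the features carry mouse Ensembl identifiers, so the mouse build used for counting could not be told, and the kit is given differently in the methods and the labels. Strandedness is not given in the sources used here. The files hold no coordinates, so positions came from GENCODE vM21 (GRCm38) by identifier and promoters from RefSeq. No RefSeq promoter window was at hand for Ccl4 and Ccl5.

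Barcodes with 500 or more UMIs, 200 to 5000 genes and at most 8% mitochondrial UMIs were kept, and those with 10 to 100 UMIs served as empty barcodes. Cells were clustered with Seurat 5.3.0 (R 4.3.3; 2000 variable genes without the members, 20 dimensions, resolution 0.8). A cluster was named from marker lists where 3 or more markers were detected, with thresholds set after the clusters were seen. T/NK-like cells were split by UMIs of Cd8a or Cd8b1, of Cd4 and Foxp3, and of Ncr1 or Klrb1c. A sub-cluster with 2 or more of its 10 leading genes on another class's list counted as mixed, a rule also set after seeing the data. Doublets were left in, and the 8% of cells with the highest simulated-doublet score were removed as an alternative.

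UMIs were summed per library and class (Python 3.11.15, scipy 1.17.1). Intervals are 95% exact Poisson for CPM, conditional exact for ratios and Clopper-Pearson for shares. UMIs and cells are not replicates, and with 1 library per condition no test was made. A gene counted as past 2-fold among genes with 50 or more UMIs over both libraries, and a count of 0 was given an upper limit of 3 UMIs. Free RNA was estimated from acinar genes, as their level in a class over that in empty barcodes, and its upper limit, added after seeing the data, from the upper CPM bound of the member lowest against empty barcodes. Shares of cells used cells thinned to 1000 UMIs. Named genes were the members, genes of the lists past 2-fold or central to the axes, and the 5 genes most like each member. Some items are not reported here. The computation was tested on simulated data. Members and lists were chosen with earlier results of these data known.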

Additional observations from a re-analysis of the deposited data

Results flagged for a closer look

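The ratio of CPM, library labelled MCT1-KO over FLOX, lay on opposite sides of 1 in different classes for 3 genes, and since each condition was 1 library the difference between classes was not tested. Ccl4 had a ratio of 1.05 in myeloid-like cells, against 0.312 in neutrophil-like and 0.376 in T/NK-like cells. Ccl5 had a ratio of 1.71 in dendritic-like cells, against 0.797 in myeloid-like and 0.897 in T/NK-like cells. The dendritic-like ratio rests on few cells, since 12 FLOX cells and 11 of the other library held most of the UMIs. The thinned share of dendritic-like cells with Ccl5 was not higher in the library labelled MCT1-KO, at 17.1% in FLOX and 12.5% there. Ccr1 had a ratio of 1.08 in myeloid-like cells and 0.895 in neutrophil-like cells.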

How the results depend on the processing

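No paired analysis was possible because each condition was 1 library, and no replicate could be left out. Ratios are the library labelled MCT1-KO over FLOX. Where no cause is given, the cause was not tested. With free RNA subtracted at the shares the acinar genes gave, the ratio in myeloid-like cells reversed to 0.830 for Ccl4 and 0.860 for Ccr1 and became 0.772 for Ccl3. The same step gave 0.178 for Ccl3, 0.185 for Ccl4 and 0.603 for Ccr1 in neutrophil-like cells, 0.228 for Ccl3, 0.289 for Ccl4, 0.687 for Ccl5 and 0.528 for Xcl1 in T/NK-like cells, and 0.286 for Xcr1 in dendritic-like cells. These shares were above those that Xcl1 leaves room for in myeloid-like cells (12.9% in FLOX and 10.1% in the other library, against 36.0% and 13.4%) and Ccl5 in FLOX neutrophil-like cells (19.9% against 58.6%), if free RNA has the makeup of empty barcodes, which both estimates assume and which was not tested. With likely doublets left out, Ccl3 in myeloid-like cells reversed to 1.07, Ccl4 became 1.16 there and 0.352 in neutrophil-like cells, Ccr1 1.19 in myeloid-like cells and Xcl1 0.573 in T/NK-like cells. The shares of UMIs became 62.2% for Ccl3, 83.5% for Ccl4 and 70.4% for Ccr1 in myeloid-like cells and 50.2% for Ccl5 in T/NK-like cells.

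Classes taken from each cell's own marker UMIs gave ratios of 0.233 for Ccl3 and 0.380 for Ccl4 in neutrophil-like cells, 1.08 for Ccl4 in myeloid-like cells, and 0.340 for Ccl4, 0.837 for Ccl5 and 0.495 for Xcl1 in T/NK-like cells, with UMI shares of 46.4% for Ccl5, 87.7% for Xcl1 and 87.8% for Xcr1. Without the upper gene limit the ratios were 0.971 for Ccl3 and 1.097 for Ccl4 in myeloid-like cells and 0.948 for Ccl5 in T/NK-like cells, and the UMI shares 58.3% for Ccl3, 77.7% for Ccl4 and 66.7% for Ccr1 (myeloid-like), 47.6% for Ccl5 and 90.4% for Xcl1 (T/NK-like) and 85.4% for Xcr1. A minimum of 1000 UMIs gave myeloid-like shares of 61.7%, 81.0% and 71.7% for Ccl3, Ccl4 and Ccr1. Size factors gave 0.248 for Ccl3 in neutrophil-like and 1.03 for Ccl4 in myeloid-like cells, and clustering the T/NK-like cells again gave 0.928 for Ccl5 in CD8 T cells. Resolution 0.4 moved no ratio or share of UMIs, and a total without mitochondrial, acinar and stress genes, run for the ratios in the source classes, moved none of them.

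By construction, the shares of cells with a UMI depended on depth. Thinned to 500 UMIs and without thinning, they were 18.8% and 51.2% for Ccl3, 38.7% and 67.7% for Ccl4 and 6.60% and 45.1% for Ccr1 in myeloid-like cells, 54.6% and 76.9% for Ccl5 and 7.97% and 18.3% for Xcl1 in T/NK-like cells, and 9.78% and 43.1% for Xcr1 in dendritic-like cells. With a minimum of 1 UMI per gene, the shares of all genes higher and lower past 2-fold were 14.6% and 13.3% in myeloid-like, 17.1% and 19.5% in neutrophil-like, 13.9% and 16.3% in T/NK-like and 14.5% and 20.7% in dendritic-like cells. With log2(CPM + 1), 3 of the 5 genes most like Ccl4 and 2 of the 5 most like Xcl1 were shared with the list in the report.

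Both remaining alternatives were chosen after seeing the data. Without clusters led by genes of another cell type, the ratios were 1.07 for Ccl4 in myeloid-like and 0.556 for Xcl1 in T/NK-like cells, and the UMI shares 81.3% for Ccl4 and 48.1% for Ccl5. Without the cell with the most UMIs in each library, the T/NK-like ratios were 0.346 for Ccl3 and 0.405 for Ccl4. In all, 116 recomputed values held, 69 moved by more than counting error (counts by over 1.5 times) and 3 reversed. Depth limited Xcl1 and Xcr1 most, with 1736 and 581 kept UMIs, and the NK and regulatory T cell subsets, with 14 to 31 cells in a library.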

Other observations

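The Cre was aimed at PSCs through the Col1a2 promoter, and its activity in PSC-like cells was not tested here. In PSC-like cells Ccl4 was at 84.7 CPM (73.1 to 97.7) in FLOX and 227 (211 to 244) in the library labelled MCT1-KO. Ccl5 was at 21.5 (15.9 to 28.5) and 58.6 (50.4 to 67.6). All 4 levels were below those of empty barcodes, at 427 and 304 CPM for Ccl4 and 216 and 138 for Ccl5. Without thinning, 31.6% of PSC-like cells in FLOX and 18.8% in the other library had a Ccl4 UMI. After thinning to 1000 UMIs the shares were 4.83% and 8.83%, with overlapping intervals. For Ccl5 they were 11.5% and 10.6% without thinning and 2.42% and 3.38% after it. The macrophage genes together reached 4305 CPM in PSC-like cells of FLOX and 5896 in those of the other library. Likely doublets were 23.3% and 2.5% of the 2 PSC-like clusters. How much of the 4 levels came from free RNA, doublets or macrophage RNA was not tested. Xcr1 in empty barcodes was at 2.86 and 0.751 CPM.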
